A study of Arabidopsis thaliana with 10 samples.

Results

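Pollen that lacked the largest subunit of RNA polymerase IV was compared with wild-type pollen, in 4 of the 10 RNA-seq libraries of the series. Both were sorted by fluorescence from plants of the same heterozygous genotype. The members were chosen by their sample labels, with earlier results of these data known. They were 2 nrpd1a-3 FTL libraries and 2 WT FTL libraries. All 4 were made from Arabidopsis thaliana Col-0 pollen grown in a greenhouse under long days. FTL1230 is a fluorescence tagged line in which the pollen promoter pLAT52 drives DsRed from an insertion that is genetically linked to NRPD1a. Plants heterozygous for this insertion and for the T-DNA allele nrpd1a-3 segregate 2 kinds of haploid pollen. The DsRed-negative grains were collected as nrpd1a-3 FTL (mutant allele, no pLAT52::DsRed), and the DsRed-positive grains as WT FTL (wild-type NRPD1a, pLAT52::DsRed). The parent plants of both groups therefore carried one working copy of NRPD1a until meiosis, the groups differ in the presence of DsRed and in the chromosome 1 haplotype around NRPD1a as well as in the mutation, and the mutant gate is defined by the absence of a signal.

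RNA polymerase IV is a plant-specific enzyme that transcribes transposable elements (TEs) and repeats. Its short transcripts are made double-stranded by RDR2 and cut by DCL3 into 24-nucleotide small interfering RNAs, which guide DRM2 to methylate cytosines at matching DNA in the pathway called RNA-directed DNA methylation (RdDM). In the pollen grain, a large vegetative cell that forms the pollen tube encloses 2 sperm cells, and the vegetative nucleus is known for its loosened heterochromatin and for the transcription of TEs.

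Among TE families, the lowest adjusted p with the replicate number as a block were those of the Gypsy retrotransposon families ATHILA4A and ATHILA4, and copies of ATHILA4A hold stretches of identical sequence. Such stretches are printed to show how alike the copies are, and both are shorter than a read of 100 bases. A pair of copies shares 91 bases, shown in capitals with 15 bases on either side, read from the TAIR10.1 assembly at chr5:11289579-11289699 on the plus strand and chr1:15717322-15717442 on the minus strand.

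AT5TE40920: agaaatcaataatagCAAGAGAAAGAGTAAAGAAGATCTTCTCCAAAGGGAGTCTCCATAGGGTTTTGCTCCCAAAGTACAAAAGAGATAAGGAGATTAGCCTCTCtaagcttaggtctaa

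AT1TE51745: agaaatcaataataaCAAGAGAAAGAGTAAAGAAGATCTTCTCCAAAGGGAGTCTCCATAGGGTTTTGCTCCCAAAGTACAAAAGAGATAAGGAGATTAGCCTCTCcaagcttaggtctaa

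A second pair shares 59 bases, shown in the same way, at chr5:11289474-11289562 and chr4:1743199-1743287, both on the plus strand.

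AT5TE40920: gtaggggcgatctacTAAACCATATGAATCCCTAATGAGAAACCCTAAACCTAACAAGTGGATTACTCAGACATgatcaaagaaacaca

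AT4TE08720: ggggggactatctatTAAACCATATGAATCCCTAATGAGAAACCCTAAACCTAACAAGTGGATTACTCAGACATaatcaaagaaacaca

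Most of the sequence of these elements is found once in the genome. Of the 100-base windows of each element, the share that occurs once in the nuclear genome on both strands was 98.8% for AT4TE08720 and 84.0% for AT1TE51745. It was 100% for AT5TE40920 and for the ATHILA4 copies AT3TE63845 and AT3TE51035. Over the 46 TEs outside genes of at least 100 bases that are called further on, the median share was 100% and the lowest 0.14%, and 34 had over 90%.

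The 4 libraries held 51287326 and 53471964 reads over genes and TEs in nrpd1a-3 FTL, against 52579687 and 51658504 in WT FTL. Reads were counted over 27394 genes and 31189 TEs, of which 27197 TEs overlapped no gene. NRPD1A itself could not check the labels, since it had 10 and 0 reads in the nrpd1a-3 FTL libraries and 0 and 2 in the WT FTL libraries. Pollen markers were abundant in every library: 10 sperm cell markers summed to 49818 and 41587 normalized reads in nrpd1a-3 FTL, against 38495 and 62814 in WT FTL, and 13 vegetative cell markers to 362300 and 267038, against 587902 and 312163. Tapetum and pollen coat markers summed to 25 at most. Both mutant libraries stood apart. In nrpd1a-3 FTL 1, 14 leaf photosynthesis markers summed to 1166 normalized reads, and in nrpd1a-3 FTL 2 to 74.4, against 229 and 116 in the WT FTL libraries. The first also had the most features with 10 reads or more, 12791, against 10591 to 11545 in the other 3. In nrpd1a-3 FTL 2 the 10 most abundant features took 28.6% of the reads and TEs outside genes 0.907%, against 18.5% to 22.2% and 0.616% to 0.736% in the other 3. TEs outside genes took 0.677% in nrpd1a-3 FTL 1, between the 2 WT FTL values. Of the counts above 20 in these libraries, 70.8% to 74.8% were even numbers, so both mates of a pair may each have been counted, and a printed read may be a mate and not a fragment. Normalized reads are counts divided by the median-of-ratios size factor of the library.

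When all genes and TEs were fitted together with DESeq2 and without regard to the replicate numbers, 2 of 24995 tested features had an adjusted p under 0.05, both higher in nrpd1a-3 FTL (0.008% of those tested), and 0 were lower. The quasi-likelihood test of edgeR called 1 of 11612 (0.00861%), higher. At an unadjusted p under 0.05 there were 544 higher features (2.18%) and 109 lower (0.436%). With the replicate number as a block, DESeq2 called 309 features higher (6.66% of the 4642 tested) and 50 lower (1.08%). Of these calls, 23 higher and 4 lower were TEs that overlap a gene, whose reads may also be counted in that gene. The paper states that both kinds of pollen were sorted simultaneously, but not that libraries of equal number came from one sort or one set of plants. The block leaves 1 residual degree of freedom. The direction of the calls depended on the scaling. Scaling to equal total reads in place of median-of-ratios factors gave a median log2 fold change over all features of -0.37 with the block, beside -0.05. In that fit 93 features were called higher (2.24% of the 4158 tested) and 465 lower (11.2%). Of the 309 higher calls, 87 were also called under that scaling, and so were all 50 lower calls, with 0 features turned in sign. With the block, edgeR called 275 higher (2.37%) and 61 lower (0.525%) of 11612 features, among them 191 of the 309 and 25 of the 50. Below, "called" means an adjusted p under 0.05 in DESeq2 with the replicate block unless another fit is named, and n is 2 libraries a group throughout.

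ILA (ILITYHIA), the Arabidopsis homologue of the translational regulator GCN1, was the only gene called higher without the block. It had 17808 and 23539 in the nrpd1a-3 FTL libraries, against 1000 and 1749 in the WT FTL libraries, in normalized reads. Both mutant values exceeded the highest WT FTL value more than 10-fold, which made ILA 15.5-fold higher (log2 fold change 3.95 ± 0.26 (SE) with the block, adjusted p = 2.2e-48, DESeq2). Without the leaf-marked library nrpd1a-3 FTL 1 and without the block, the log2 fold change was 4.09. With the block, the call held under edgeR, under total-read scaling and after offsets for transcript length. ILA lies at chr1:24064937-24083428, 702.373 kb from NRPD1A on the chromosome arm by which the pollen was sorted. The loss of NRPD1a and an allele on the same haplotype therefore cannot be told apart for this gene. The intergenic intervals on either side gave no comparable signal, with 0 reads in every library on one side, and on the other 227 and 385 reads in nrpd1a-3 FTL against 134 and 193 in WT FTL.

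**Figure D1:**
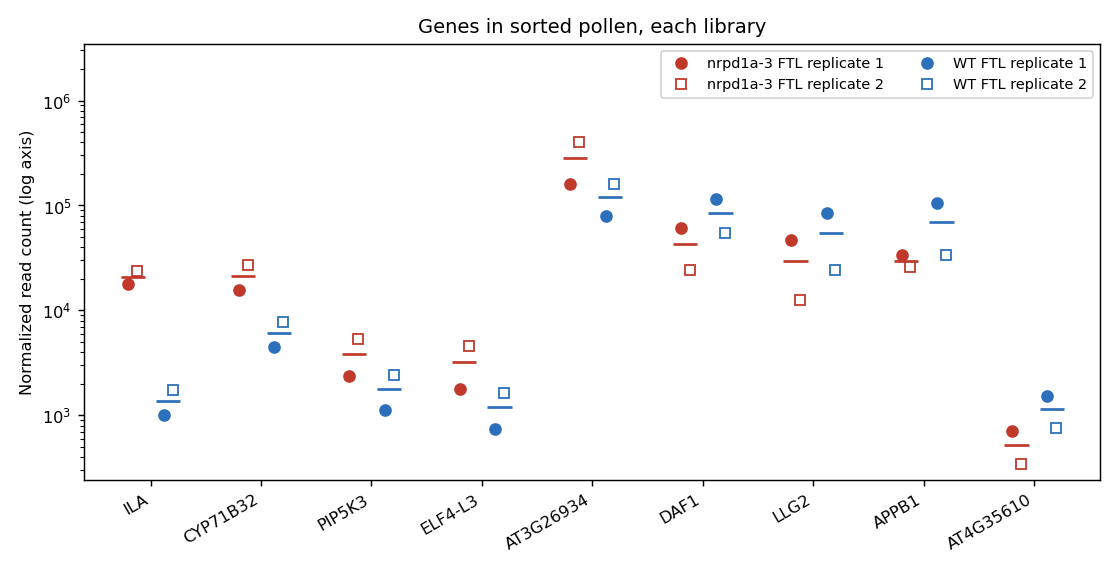
Normalized read counts (log axis) of 9 genes in each library, with nrpd1a-3 FTL in red to the left of WT FTL in blue, replicate 1 as filled circles, replicate 2 as open squares and the group mean as a short line. ILA and CYP71B32 did not overlap between groups, whereas for LLG2 and DAF1 the difference is seen within each replicate number and the groups overlap.

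CYP71B32, a cytochrome P450 monooxygenase, followed with 15552 and 26858 in the nrpd1a-3 FTL libraries, against 4485 and 7820 in the WT FTL libraries, so that the groups did not overlap. Its log2 fold change was 1.79 ± 0.25 (adjusted p = 1.0e-09, DESeq2 with the block; 0.36 without it). A total of 12 higher genes were called in 4 fits that all used the block: DESeq2, edgeR, total-read scaling and length offsets. Besides ILA and CYP71B32 they were ELF4-L3 and ELF4-L4, relatives of the clock protein EARLY FLOWERING 4, the thioredoxin TRX5, the CCAAT-binding subunit NF-YB7, the proton pump subunit VHA-E3, the phosphoinositide kinase PIP5K3, the initiation factor relative AT5G54940, the respiratory subunit AT1G15120, AT3G29255 and the uncharacterized AT3G26934. VHA-E3 lies at chr1:23828526-23830002, between NRPD1A and ILA, so for this gene too the mutation and its haplotype cannot be told apart. Without the block only ILA among these 12 was called. Apart from ILA and CYP71B32, each of them then had an adjusted p of 0.99 in DESeq2. AT3G26934 was the most abundant of them, with 158691 and 404691 in the nrpd1a-3 FTL libraries, against 80062 and 158686 in the WT FTL libraries (log2 fold change 1.17 ± 0.25, adjusted p = 7.9e-04, DESeq2). PIP5K3, which makes the phosphatidylinositol bisphosphate of growing cell tips, had 2351 and 5304 in the nrpd1a-3 FTL libraries, against 1129 and 2403 in the WT FTL libraries (log2 fold change 1.1 ± 0.27, adjusted p = 0.0031, DESeq2). In both, each mutant library exceeded the WT FTL library of its own number about as much, but nrpd1a-3 FTL 1 lay below or level with WT FTL 2. ELF4-L3 had 1791 and 4604 in the nrpd1a-3 FTL libraries, against 738 and 1649 in the WT FTL libraries and ELF4-L4 1207 and 4276 in nrpd1a-3 FTL, against 641 and 1425 in WT FTL, with the mutant library of number 1 above WT FTL 2 in ELF4-L3 and below it in ELF4-L4. Their log2 fold changes were 1.38 ± 0.28 and 1.25 ± 0.30. The called Helitron AT2TE11165 overlaps ELF4-L3 and had nearly the same values, 1791 and 4604 in nrpd1a-3 FTL against 739 and 1649 in WT FTL. Called TEs also overlap CYP71B32 (AT3TE80270), AT3G26934 (AT3TE41320) and, among the lower genes, LLG2 (AT2TE37610).

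Lower in nrpd1a-3 FTL were 43 genes, of which 8 were called under the same 4 fits with the block. Without the block each of these 8 had an adjusted p of 0.99 in DESeq2. LLG2, a GPI-anchored partner of the receptor kinases that keep the pollen tube intact, had 46376 and 12644 in the nrpd1a-3 FTL libraries, against 85547 and 24096 in the WT FTL libraries. Its values differed more between numbers than between groups, and within each number the mutant value was about the same fraction of the WT FTL value (log2 fold change -0.91 ± 0.25, adjusted p = 0.0077, DESeq2). DAF1, an F-box protein gene activated by the germline regulator DUO1, had 60912 and 24024 in the nrpd1a-3 FTL libraries, against 115371 and 54595 in the WT FTL libraries (log2 fold change -1.05 ± 0.25, adjusted p = 0.0023, DESeq2). APPB1, a pectin methylesterase inhibitor family member, had 33441 and 26141 in the nrpd1a-3 FTL libraries, against 104700 and 33965 in the WT FTL libraries, a difference that was larger in replicate 1 (log2 fold change -1.01 ± 0.31). The zinc finger gene AT4G35610 had 704 and 347 in the nrpd1a-3 FTL libraries, against 1542 and 758 in the WT FTL libraries, with both mutant values below both WT FTL values (log2 fold change -1.13 ± 0.32, adjusted p = 0.01, DESeq2). AT5G05510, AT1G30050, AT3G10770 and AT3G44430 completed the 8, with log2 fold changes between -1.51 and -0.97. Without WT FTL replicate 1 and without the block, the log2 fold change was 0.29 for LLG2, 0.08 for AT1G30050 and 0.03 for AT3G10770. AT5G05510 holds the homology region of the spindle checkpoint proteins Mad3 and BUB1.

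Several regulators were called lower with the block but not after length offsets. The ethylene transcription factor EIN3 had 7038 and 3422 in the nrpd1a-3 FTL libraries, against 10889 and 8811 in the WT FTL libraries (log2 fold change -1.0 ± 0.28, adjusted p = 0.011, DESeq2), and its groups did not overlap. The B-type cyclin CYC1BAT had 1591 and 239 in the nrpd1a-3 FTL libraries, against 2105 and 949 in the WT FTL libraries, and its groups overlapped (log2 fold change -1.18 ± 0.38, adjusted p = 0.032, DESeq2). DDM1, the chromatin remodeller that keeps heterochromatin methylated (listed as CHR1), had 297 and 179 in the nrpd1a-3 FTL libraries, against 779 and 413 in the WT FTL libraries. Both mutant values lay below both WT FTL values (log2 fold change -1.3 ± 0.38, adjusted p = 0.014; 0.13 with length offsets, DESeq2 with the block). The maintenance methyltransferase MET1 had 118 and 88.2 in nrpd1a-3 FTL, against 356 and 113 in WT FTL, with an adjusted p of 0.26 in DESeq2 with the block.

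The genes of the pathway itself were barely measured in these libraries. Of the genes that make siRNAs with Pol IV, only the small RNA methyltransferase HEN1 reached a mean of 10 normalized reads, with 143 and 83.2 in the nrpd1a-3 FTL libraries, against 162 and 135 in the WT FTL libraries. RDR2, DCL3, SHH1, NRPD2 and CLSY1 had at most 7.72 normalized reads in any library. In the Pol V and methylation arm 4 members were measured, and AGO9 was the most abundant of these with 106 and 35.3 in nrpd1a-3 FTL, against 248 and 86.4 in WT FTL. Among 6 measured genes of the post-transcriptional pathway, AGO1 had 54.1 and 2.52 in nrpd1a-3 FTL, against 1.67 and 3.84 in WT FTL and HYL1 34.7 and 15.1 in nrpd1a-3 FTL, against 1.67 and 1.92 in WT FTL, most of it in nrpd1a-3 FTL 1, the library with the leaf markers. None of these lists held a call other than DDM1. The imprinted genes of the triploid seed response had no member with a mean of 10.

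Gene groups with several calls included small secreted peptides, calcium sensors and small subunits of respiratory complexes. Of 56 measured defensin-like and cysteine-rich peptides, 11 of the 21 tested were called higher and 0 lower, and the median log2 fold change over the 56 was 0.98, beside -0.03 over all 11275 features with a mean of 10 or more. Of all features tested, 6.66% were called higher and 1.08% lower. Leaving out nrpd1a-3 FTL replicate 2 gave a median of 0.37 over the 56, and leaving out WT FTL replicate 1 gave 0.65. The 56 included 26 with both mutant values above both WT FTL values (46.4%) and 4 below, beside 15.3% and 15.8% of all features. LCR72, one of the peptides, had 252556 and 490745 in the nrpd1a-3 FTL libraries, against 121814 and 238287 in the WT FTL libraries (log2 fold change 1.05 ± 0.24, adjusted p = 0.0022, DESeq2). AT5G60615, a further peptide of this group, had 599939 and 1118490 in the nrpd1a-3 FTL libraries, against 315899 and 580032 in the WT FTL libraries (log2 fold change 0.94 ± 0.24). AT5G40155 had 17951 and 44712 in nrpd1a-3 FTL, against 9097 and 16245 in WT FTL, and its nrpd1a-3 FTL 1 value lay above both WT FTL values (log2 fold change 1.22 ± 0.26).

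The S-protein homologues, relatives of the stigma protein of poppy self-incompatibility and grouped here after their values were seen, gave 9 higher and 0 lower calls among 15 tested, beside 6.66% and 1.08% of all features, with a median of 1.1 over 22. Leaving out nrpd1a-3 FTL replicate 2 gave a median of 0.33, leaving out WT FTL replicate 1 gave 0.73, and leaving out WT FTL replicate 2 gave 1.70. Their most abundant called member AT1G51250 had 300958 and 691806 in the nrpd1a-3 FTL libraries, against 145287 and 285162 in the WT FTL libraries (log2 fold change 1.16 ± 0.25, adjusted p = 6.3e-04, DESeq2). Also called were PMEI1, an inhibitor of pectin demethylation in the pollen tube wall, with 296811 and 797941 in the nrpd1a-3 FTL libraries, against 149977 and 315051 in the WT FTL libraries (log2 fold change 1.16 ± 0.25), and the arabinogalactan peptide gene AGP41 with 383387 and 776684 in nrpd1a-3 FTL, against 205532 and 347179 in WT FTL (log2 fold change 1.03 ± 0.25). Of 51 pectin methylesterases and inhibitors, 2 of 28 tested were called higher and 1 lower, and the median was 0.14, or -0.26 without nrpd1a-3 FTL replicate 2 and -0.09 without WT FTL replicate 2.

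Calcium sensors and calcium-dependent kinases gave 10 higher and 0 lower calls among 73 tested, beside 6.66% and 1.08% of all features, although their median over 125 was 0.09 and became -0.07 without nrpd1a-3 FTL replicate 2. With total-read scaling and the block, 2 were called higher and 6 lower. The EF-hand protein AT3G03430 had 16962 and 36250 in the nrpd1a-3 FTL libraries, against 8431 and 13611 in the WT FTL libraries (log2 fold change 1.21 ± 0.26, adjusted p = 6.3e-04, DESeq2). Late embryogenesis abundant proteins, which protect drying cells, gave 3 higher calls among 11 tested, including AT5G38760 with 11460 and 23429 in nrpd1a-3 FTL, against 5033 and 9762 in WT FTL (log2 fold change 1.23 ± 0.25). Subunits of the respiratory chain and ATP synthase, also grouped after their values were seen, gave 7 higher and 0 lower calls among 40 tested, beside 6.66% and 1.08% of all features, with a median of 0.29 over 53. Leaving out nrpd1a-3 FTL replicate 2 gave a median of 0.10 and leaving out WT FTL replicate 2 gave 0.59, and with total-read scaling 2 were called higher and 1 lower.

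Cytosolic ribosomal proteins had a median of 0.88 over 171 genes. Of these, 70 did not overlap upward (40.9%) and 5 downward (2.92%), beside 15.3% and 15.8% of all features. DESeq2 with the block called 0 of 26 tested, and over all 171 an unadjusted p under 0.05 was found for 23 higher and 2 lower genes, while edgeR with the block called 9 higher. Without the block an unadjusted p under 0.05 was found for 31 higher genes and no lower gene, beside 3.33% and 0.701% of features of that level. The difference was larger in replicate 1, with a median log2 ratio of 1.42, than in replicate 2 with 0.27, and the leaf markers were high in the mutant library of number 1. Leaving out that library gave a median of 0.37, and leaving out WT FTL replicate 2 gave 1.48. Of 515 protein kinases, 43 did not overlap upward (8.35%) and 140 downward (27.2%), beside 15.3% and 15.8% of all features. Their median was -0.23, or -0.11 without WT FTL replicate 1, and 3 of 274 tested were called in each direction, where 6.66% and 1.08% of all features were. Among 60 heat shock proteins the median was -0.38, and it was 0.01 without WT FTL replicate 1. Of 22 tested 1 was called lower, HSP70, with 282 and 124 in nrpd1a-3 FTL, against 1094 and 230 in WT FTL (log2 fold change -1.44 ± 0.41, adjusted p = 0.012, DESeq2). The groups of HSP70 overlapped, and its adjusted p was 0.092 after length offsets (DESeq2 with the block).

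**Figure D2:**
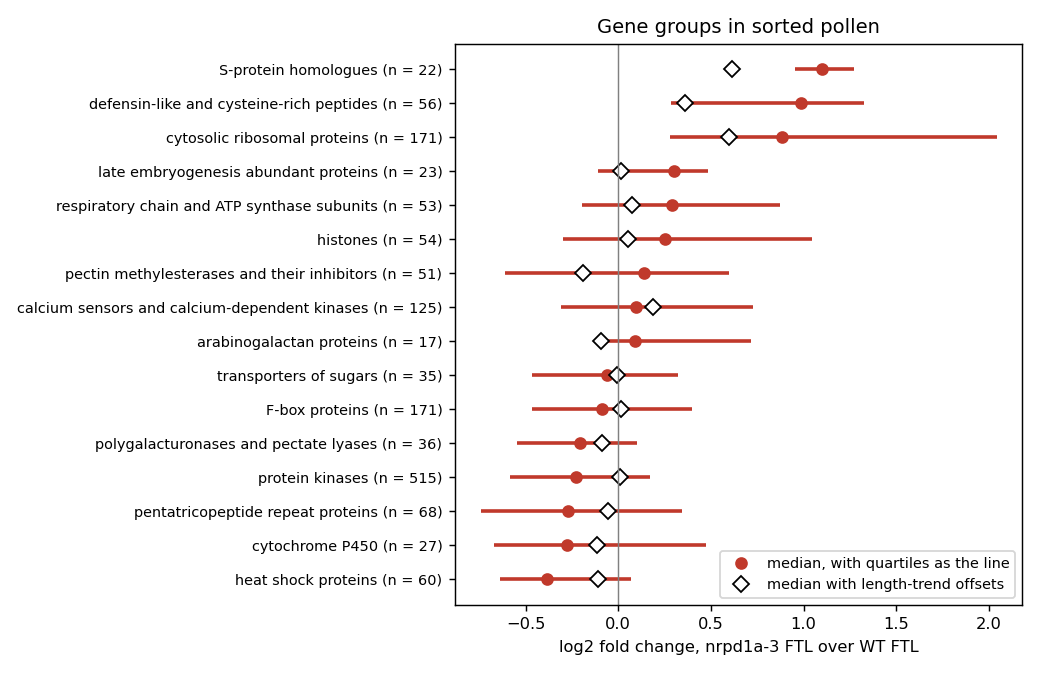
Median log2 fold change of nrpd1a-3 FTL over WT FTL (red points, with quartiles as lines) for gene groups with at least 17 genes of mean 10 or more, fitted without the block, and the median after offsets for transcript length (open diamonds). S-protein homologues, defensin-like peptides and ribosomal proteins have medians of 1.1, 0.98 and 0.88, which become 0.61, 0.36 and 0.60 with the offsets.

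The groups with higher medians consist of short transcripts, and the log2 fold change followed transcript length over all genes. Genes with a longest transcript of 400 to 600 bases had a median log2 fold change of 0.82, and those over 4000 bases had -0.45. A like trend separated replicate 2 from replicate 1 within each group: genes of 400 to 600 bases had a median log2 ratio of 0.90 between numbers in nrpd1a-3 FTL and 0.81 in WT FTL. The called genes had a median length of 915 bases (higher) and 1700 bases (lower). With each library's trend against length taken out as an offset, 51 of the 238 higher genes that could be tested were still called, as were 15 of 41 lower ones, out of 74 higher (2.05% of 3617) and 36 lower calls (0.995%) in that fit. In that fit DESeq2 called 0 of 20 defensin-like peptides and 0 of 14 S-protein homologues that could be tested, while over all 56 and 22 members an unadjusted p under 0.05 was found for 5 and 7, all higher. It called 1 gene of the calcium list, and the median of the kinases became 0.01. Of 27 tested pectin methylesterases and inhibitors the same fit called 0 higher and 3 lower, and of 9 arabinogalactan proteins 0 higher and 1 lower. It called 0 of 11 late embryogenesis abundant proteins, and of 34 respiratory subunits 3 higher and 0 lower. Why the ratios followed length was not tested.

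**Figure D3:**
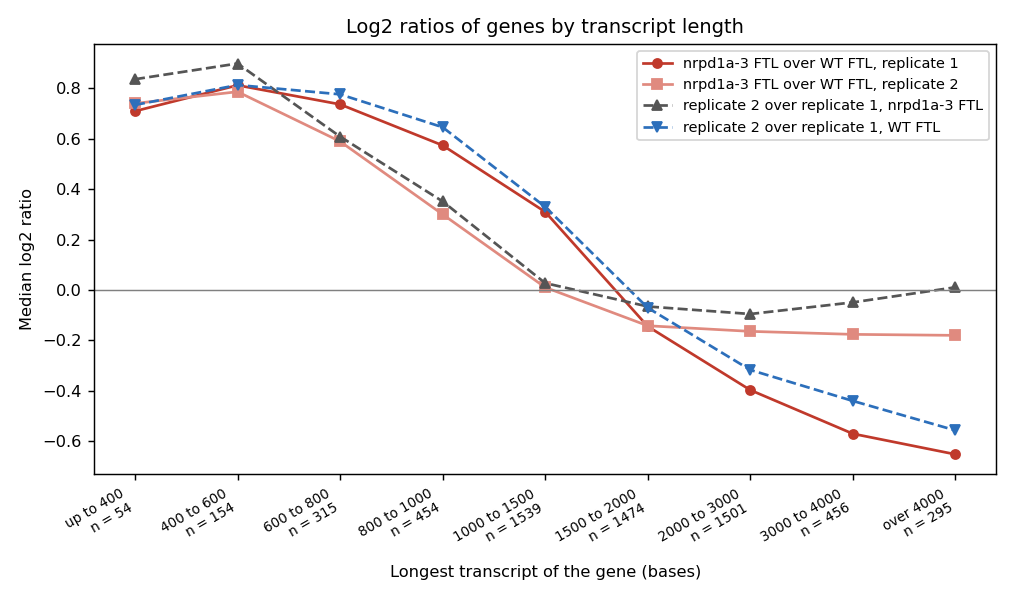
Median log2 ratios of genes with a mean of at least 50 normalized reads, in bins of longest transcript length, for nrpd1a-3 FTL over WT FTL within each replicate number (red) and for replicate 2 over replicate 1 within nrpd1a-3 FTL (grey) and WT FTL (blue). All 4 lines are above 0.7 at 400 to 600 bases, and both red lines are below 0 over 4000 bases.

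TEs outside genes had a higher median ratio than genes, a difference that was not tested. Over 747 such TEs with a mean of 10 or more the median log2 fold change was 0.73, against -0.07 over 10109 genes and 0.12 over 419 TEs that overlap a gene. The median over the 747 was 0.14 without nrpd1a-3 FTL replicate 2, 0.44 without WT FTL replicate 1, 1.04 without nrpd1a-3 FTL replicate 1 and 1.13 without WT FTL replicate 2. The groups did not overlap in 269 of the 747 upward (36.0%) and in 57 downward (7.63%), beside 13.5% and 16.5% of the genes. In 136 the ratio was over 2-fold upward in both replicate pairs and in 16 it was over 2-fold downward, where 4.91% and 2.17% of all features were. The block fit called 44 of 166 tested higher and 3 lower. With total-read scaling 14 were called higher and 13 lower, and the median became 0.40, against -0.36 for the genes. Intergenic intervals, which hold no annotated gene or TE, also took more of all counted reads in both mutant libraries. Their share was 5.67% and 6.33% in nrpd1a-3 FTL, against 4.83% and 5.35% in WT FTL. No transcript length could be set against TEs, whose transcript ends are not annotated. How far short TE transcripts followed the trend with length was therefore not tested. The 747 elements as annotated had a median of 626 bases, beside a median longest transcript of 1697 bases over the genes. The median was 595 bases in MuDR DNA transposons, 450 in Helitrons and 1666.5 in Gypsy elements.

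MuDR DNA transposons held 26 of the 44 higher calls in the block fit, but 5 of 14 with total-read scaling and the block, where Gypsy held 4. The median over 222 MuDR copies was 1.11, and 121 did not overlap upward (54.5%) and 8 downward (3.60%). Over all TEs outside genes these shares were 36.0% and 7.63%, and over all features 15.3% and 15.8%. In MuDR 67 copies were over 2-fold higher in both pairs and 0 lower, and 26 of the 61 tested were called higher and 1 lower. Of all features tested 6.66% were called higher and 1.08% lower, and of TEs outside genes 44 of 166 higher and 3 lower. Helitrons, which transpose by a rolling circle, had a median of 0.70 over 161 copies with 3 higher calls of 25. Gypsy retrotransposons had a median of 0.60 over 104 copies with 4 higher calls of 14. The groups did not overlap upward in 30.4% of the Helitron and 34.6% of the Gypsy copies, both below the share over all TEs outside genes. Harbinger elements had a median of 0.72 over 30 copies, of which 11 did not overlap upward and 0 downward, with 4 calls of 13. Copia retrotransposons were split, with a median of 0.25 over 76, 13 copies not overlapping upward and 16 downward, and 2 calls in each direction, or 0 higher and 7 lower with total-read scaling. LINE L1 elements (median 0.23 over 38) and HAT elements (-0.02 over 14) had about as many copies on either side.

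**Figure D4:**
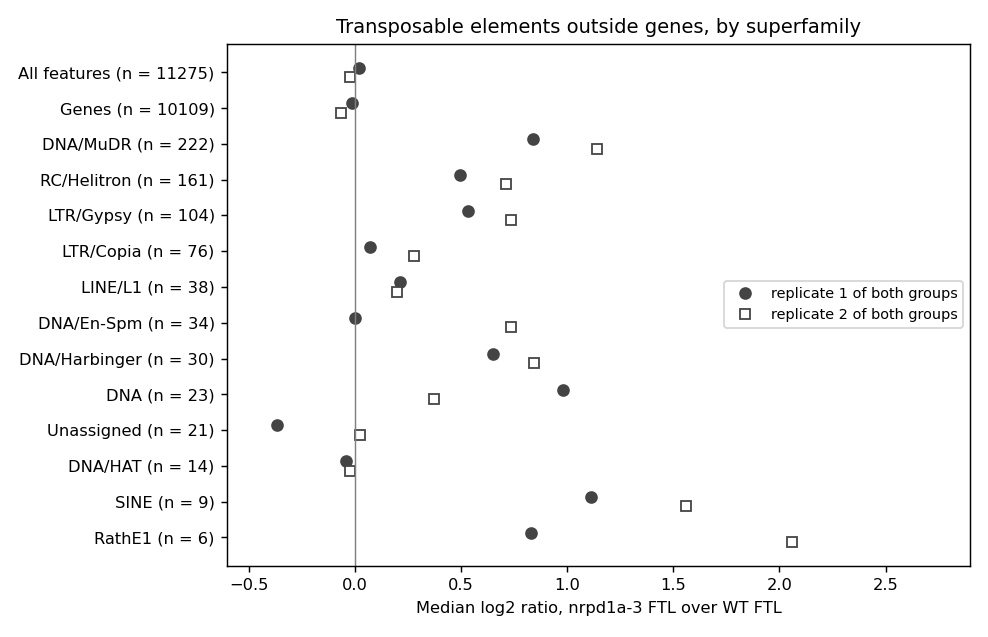
Median log2 ratio of nrpd1a-3 FTL over WT FTL within replicate 1 (filled circles) and within replicate 2 (open squares) for TEs outside genes, by superfamily with at least 5 copies of mean 10 or more, below the same for all features and for genes. MuDR, Helitron, Gypsy, Harbinger, SINE and RathE1 elements have medians above 0.4 in both replicates, and HAT elements are near 0 in both.

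Reads of all copies outside genes were also summed, since copies can share reads. Over 18 superfamilies, DESeq2 without the block and edgeR without it each called 0 sums. An unadjusted p under 0.05 was found for 4 higher sums in DESeq2 and 3 in edgeR, and for no lower sum. The groups did not overlap in 6 upward (33.3%) and in 1 downward (5.56%). With the block 4 of 13 tested were higher (30.8%) and 0 lower. The SINE sum was 8704 and 21213 in the nrpd1a-3 FTL libraries, against 4005 and 6931 in the WT FTL libraries (log2 fold change 1.37 ± 0.26, adjusted p = 2.0e-04, DESeq2), but 96.1% of it was a single copy. The Gypsy sum was 27666 and 54977 in the nrpd1a-3 FTL libraries, against 13221 and 18716 in the WT FTL libraries (log2 fold change 1.31 ± 0.26, adjusted p = 2.2e-04, DESeq2), 51.0% of it from AT3TE63845. The MuDR sum was 111951 and 233046 in the nrpd1a-3 FTL libraries, against 63623 and 111469 in the WT FTL libraries (log2 fold change 0.94 ± 0.25, adjusted p = 0.0052, DESeq2), and the Harbinger sum 22417 and 44299 in nrpd1a-3 FTL, against 13030 and 24338 in WT FTL (log2 fold change 0.82 ± 0.25, adjusted p = 0.017). Of these 4, SINE and Gypsy were also called with total-read scaling and the block (adjusted p = 0.011 and 0.013, DESeq2), where the class listed only as DNA was called lower. The Gypsy and SINE sums did not overlap between the groups, and the MuDR groups nearly touched.

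At the level of families, DESeq2 and edgeR without the block each called 0. An unadjusted p under 0.05 was found for 30 higher and 4 lower of 288 families in DESeq2, and for 28 and 5 of 200 in edgeR. With the block 26 of 101 families were higher (25.7%) and 2 lower (1.98%), and 57 of 196 families with a mean of 10 or more did not overlap upward (29.1%) against 17 downward (8.67%). Of the 26, 17 were MuDR families and 3 Gypsy families. ATHILA4A, a Gypsy family of the pericentromeres, had a sum of 5888 and 11205 in the nrpd1a-3 FTL libraries, against 1744 and 2536 in the WT FTL libraries. Both mutant sums were more than 2-fold above the highest WT FTL sum (log2 fold change 1.95 ± 0.26, adjusted p = 2.4e-10 with the block and 0.17 without it, DESeq2). Its reads came from 305 copies, and AT5TE40920 held 73.0% of the sum. Of 19 copies with a mean of 10 or more, 11 did not overlap upward and 1 downward, beside 36.0% and 7.63% of all TEs outside genes. ATHILA4 had 14854 and 32431 in the nrpd1a-3 FTL libraries, against 4593 and 8683 in the WT FTL libraries (log2 fold change 1.80 ± 0.25, adjusted p = 7.0e-10, DESeq2), with 96.6% in AT3TE63845 and 6 of 8 copies not overlapping upward.

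Among the MuDR families, ATDNAI27T9A had its counted reads spread over many copies. Its sum was 1496 and 3532 in the nrpd1a-3 FTL libraries, against 687 and 1114 in the WT FTL libraries (log2 fold change 1.39 ± 0.30, adjusted p = 4.8e-04, DESeq2), and 12 of its 14 measured copies did not overlap upward, against 0 downward. LIMPET1 had 6849 and 17106 in the nrpd1a-3 FTL libraries, against 3256 and 6810 in the WT FTL libraries (log2 fold change 1.2 ± 0.26, adjusted p = 4.8e-04, DESeq2). Of its 22 measured copies 15 did not overlap upward and 0 downward, beside 36.0% and 7.63% of all TEs outside genes. In ATDNAI27T9A the share of read-length windows that occurs once was 23.4% for AT5TE61705 and 27.0% for AT5TE32810. It was 44.1% for AT3TE09505 and 58.4% for AT5TE85500. In LIMPET1 it was 59.0% for AT3TE33980 and 93.5% for the most abundant copy, AT5TE67210. How reads with several positions were counted is not given, so copies may share reads and need not be independent. VANDAL21 had 349 and 767 in nrpd1a-3 FTL, against 121 and 243 in WT FTL, with 6 of 7 copies not overlapping upward (log2 fold change 1.59 ± 0.39, adjusted p = 0.0032, DESeq2). VANDAL18NB, ATMU6, VANDAL2N1 and VANDAL5A had log2 fold changes of 1.74, 1.61, 1.48 and 1.37, each with most reads in 1 copy. The 2 lower families were both Copia: ATCOPIA52 had 260 and 183.2 in the nrpd1a-3 FTL libraries, against 933 and 366 in the WT FTL libraries (log2 fold change -1.43 ± 0.40, adjusted p = 0.0096, DESeq2), and ATCOPIA36 7626 and 3403 in nrpd1a-3 FTL, against 10891 and 7586 in WT FTL (log2 fold change -0.83 ± 0.27, adjusted p = 0.033). With total-read scaling and the block 10 families were called higher and 8 lower, and ATHILA4A and ATHILA4 remained among the higher ones with adjusted p = 3.8e-06 and 1.7e-05 (DESeq2).

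Single copies showed how far the families rested on few elements. AT4TE08720, an ATHILA4A copy at a distance of 28077 bases from the nearest gene and the only TE called without the block, had 455 and 786 in the nrpd1a-3 FTL libraries, against 72.4 and 125 in the WT FTL libraries (log2 fold change 2.65 ± 0.54, adjusted p = 0.013, DESeq2 without the block). AT5TE40920 had 4104 and 8542 in the nrpd1a-3 FTL libraries, against 922 and 1842 in the WT FTL libraries (log2 fold change 2.18 ± 0.26, adjusted p = 1.7e-13, DESeq2), and AT3TE63845 14221 and 30622 in nrpd1a-3 FTL, against 4477 and 8413 in WT FTL (log2 fold change 1.77 ± 0.25, adjusted p = 1.8e-09). In all 3 elements both mutant libraries exceeded both WT FTL libraries. AT1TE51850, another ATHILA4A copy, had 495 and 308 in the nrpd1a-3 FTL libraries, against 167 and 53.8 in the WT FTL libraries, and unlike the other elements it was highest in nrpd1a-3 FTL 1 (log2 fold change 2.02 ± 0.47, adjusted p = 0.0021, DESeq2).

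The largest gaps between the groups were in elements of low level. The ATHILA4 copy AT3TE51035 had 167 and 277 in the nrpd1a-3 FTL libraries, against 6.66 and 36.5 in the WT FTL libraries, the VANDAL18NA copy AT4TE25005 57.9 and 146 in nrpd1a-3 FTL, against 7.49 and 9.60 in WT FTL and the ATHILA4A copy AT1TE51745 78.2 and 188 in nrpd1a-3 FTL, against 15.8 and 11.5 in WT FTL. Their log2 fold changes without the block were 3.37 ± 0.77, 3.58 ± 0.87 and 3.28 ± 0.78, with adjusted p between 0.10 and 0.12 in DESeq2, and edgeR with the block called all 3. AT1TE51745 ends 10 bases from AT1G42080, an uncharacterized gene that had 76.3 and 101 in nrpd1a-3 FTL, against 10.8 and 21.1 in WT FTL. AT4TE25010, an ARNOLDY2 element of the same region as AT4TE25005, had 93.6 and 142 in nrpd1a-3 FTL, against 19.1 and 28.8 in WT FTL. All these groups were apart, and none of the 5 passed the abundance filter of the block fit.

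**Figure D5:**
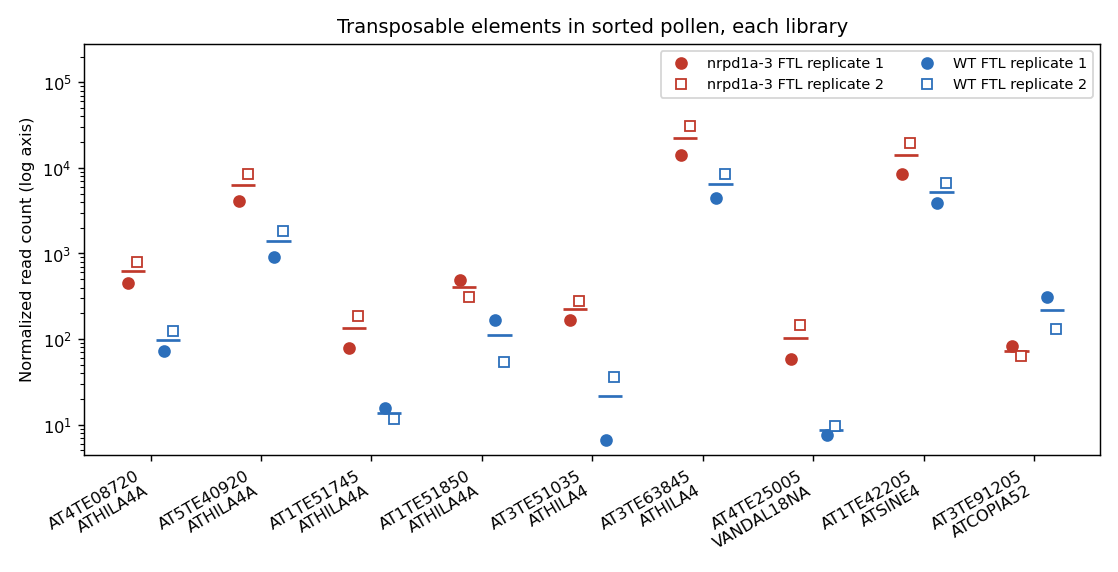
Normalized read counts (log axis) of 9 transposable elements in each library, with nrpd1a-3 FTL in red to the left of WT FTL in blue, replicate 1 as filled circles, replicate 2 as open squares and the group mean as a short line. The groups do not overlap in any of the 9, and AT3TE91205 is the one that is lower in nrpd1a-3 FTL.

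Outside the Gypsy class, some elements were called in 3 fits that all used the block: DESeq2, edgeR and total-read scaling. They included the ATSINE4 copy AT1TE42205 and the Harbinger element AT4TE03900, both with an adjusted p of 0.99 in DESeq2 without the block. AT1TE42205 had 8412 and 19727 in the nrpd1a-3 FTL libraries, against 3887 and 6686 in the WT FTL libraries (log2 fold change 1.34 ± 0.26, adjusted p = 2.2e-04, DESeq2). Its neighbour AT1TE42210, of the En-Spm family ATENSPM3, had 1169 and 2779 in nrpd1a-3 FTL, against 569 and 948 in WT FTL (log2 fold change 1.3 ± 0.30), and neither element overlapped between the groups. AT4TE03900 had 4008 and 8930 in the nrpd1a-3 FTL libraries, against 1767 and 3675 in the WT FTL libraries (log2 fold change 1.23 ± 0.26, adjusted p = 6.1e-04, DESeq2). The MuDR element AT5TE67210 of LIMPET1 had 2569 and 5916 in the nrpd1a-3 FTL libraries, against 1114 and 2644 in the WT FTL libraries (log2 fold change 1.18 ± 0.27, adjusted p = 0.0013, DESeq2), and nrpd1a-3 FTL 1 lay close to WT FTL 2 in both of these last elements. The most abundant called element, AT3TE89570 of ATDNA2T9C, had 59525 and 110435 in nrpd1a-3 FTL, against 32505 and 54403 in WT FTL and made up 49.9% of the MuDR sum (log2 fold change 0.95 ± 0.25). It was not called with total-read scaling (adjusted p = 0.069, DESeq2 with the block).

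The lowest elements lay side by side. The 5 TEs outside genes with the largest downward gaps, AT3TE91190, AT3TE91195, AT3TE91205, AT3TE91210 and AT3TE91225, stand between the genes AT3G60560 and EXPB5 on chromosome 3 and belong to 4 Copia families and 1 LINE family. AT3TE91205, of ATCOPIA52, had 82.0 and 63.0 in the nrpd1a-3 FTL libraries, against 310 and 130 in the WT FTL libraries (adjusted p = 0.077, DESeq2 with the block, and 0.03 in edgeR with the block). EXPB5, a cell wall expansin, had 1077 and 1084 in the nrpd1a-3 FTL libraries, against 3279 and 1477 in the WT FTL libraries (log2 fold change -1.03 ± 0.34, adjusted p = 0.035, DESeq2), and so was lower together with the elements beside it. Reads of one transcript that crosses the gene and the elements cannot be told apart from reads of separate transcripts in these counts. ATCOPIA52 as a family had 3 copies with a mean of 10 or more, all with both mutant values below both WT FTL values.

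Medians were positive at every distance from genes. TEs under 500 bases from a gene had a median log2 fold change of 0.56 over 242, those at 500 to 2000 bases 0.83 over 220, and those at 2000 bases or more 0.78 over 285. The measured genes nearest to them had medians of 0.17, 0.14 and 0.52. Among the farthest, Gypsy copies had a median of 0.65 over 70 and MuDR copies 1.15 over 74. Of these MuDR copies 40 did not overlap upward and 1 downward, beside 36.8% and 7.02% of all TEs at that distance.

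Features linked to the sorted locus had medians close to 0. Within 1 Mb of NRPD1A the median log2 fold change was 0.10 over 167 features. Of these, 31 did not overlap upward (18.6%) and 22 downward (13.2%), beside 15.3% and 15.8% of all features. DESeq2 with the block called 5 of 74 tested higher and 0 lower, beside 6.66% and 1.08%. With the block, edgeR called 9 of the 167 higher and 0 lower, and 25 of 904 higher and 0 lower within 5 Mb. Over all 11275 features with a mean of 10 or more it called 275 higher and 61 lower. Within 5 Mb it was 0.03 over 904, on the rest of chromosome 1 it was -0.09 over 1985, and on the other chromosomes -0.02 over 8386. In these bulk libraries a change in RNA per grain and a change in the proportion of grains or fragments of grains in a gate cannot be told apart.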

How the data were processed

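RNA-seq of pollen was used from 2 nrpd1a-3 FTL and 2 WT FTL libraries, grouped by sample label, and the other 6 libraries of the series entered only an alternative fit and the reads of ILA in the closing section. The authors aligned paired 100-base reads to TAIR10 with STAR and deposited raw read counts per gene, TE and intergenic interval. The counter, the use of strand and the treatment of reads with several positions are not given in the sources used here, so genes that overlap, lie antisense or have near-identical copies are uncertain.

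Gene and TE counts entered one table, which was fitted with DESeq2 1.42.0 (R 4.3.3, Wald test, median-of-ratios factors, independent filtering, Benjamini-Hochberg adjusted p under 0.05) without a covariate, and with the replicate number as a block. The quasi-likelihood test of edgeR 4.0.16, other scalings and filters, length offsets (loess of log2 ratio on the longest RefSeq transcript, genes only) and leaving out each library were alternatives. Counts of TEs outside genes were also summed by family and superfamily. The 4 libraries held 51287326 to 53471964 reads over genes and TEs, and most counts above 20 were even, so mates may have been counted singly and halved counts were an alternative. Counting error is large for features of few reads. The scripts were tested on simulated data. Replicates are separate libraries, and p-values without the block measure the spread between the libraries of a group. With the block, the difference between replicate numbers is taken out. Those p-values rest on how far the ratios within the replicate numbers disagree. With 1 residual degree of freedom, DESeq2 takes that spread largely from a trend over all features, so a small p does not show close agreement for a single feature. LLG2, with log2 ratios of -0.88 and -0.93 in replicates 1 and 2, and AT3G26934, with 0.99 and 1.35, both had an SE of 0.25. Either spread may be technical.

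Named features were NRPD1A, all features called by DESeq2 without or with the block or by edgeR, and the 15 highest and 10 lowest genes and the 10 highest and 5 lowest TEs outside genes by the gap between groups, at a mean of 50 normalized reads or more, groups not overlapping and unadjusted p under 0.05, from which the text names examples. The members and gene lists were chosen with earlier results of these data known. Gene names came from the files' IDs matched to RefSeq TAIR10.1 (26907 of 27394), and sequences from that assembly.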

Additional observations from a re-analysis of the deposited data

Results flagged for a closer look

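Of 15166 intergenic intervals, which belong to no gene or TE and enter no comparison above, DESeq2 without the block called 2, both higher in nrpd1a-3 FTL (0.0132%). The interval chr4:1698912-1742385 had 1682 and 2315 normalized reads in the nrpd1a-3 FTL libraries, against 238 and 502 in the WT FTL libraries (log2 fold change 2.43 ± 0.51 (SE), adjusted p = 0.022, DESeq2), and it adjoins the ATHILA4A element AT4TE08720. The interval chr2:3562227-3562651 had 210 and 379 normalized reads in nrpd1a-3 FTL, against 33.3 and 49.9 in WT FTL (log2 fold change 2.83 ± 0.60, adjusted p = 0.027, DESeq2), and it lies beside AT2TE15545, a DNA transposon that had 64.7 and 136 normalized reads in nrpd1a-3 FTL, against 16.7 and 19.2 in WT FTL. In both intervals the groups did not overlap. Whether these reads extend from the elements was not tested.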

How the results depend on the processing

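Samples with the same replicate number deviated together from their group means (r = 0.57 over 6826 features, 0.53 after length offsets), with 2 pairs and no label that ties the numbers to a sort. Against 2 features called by DESeq2 without the block, the replicate block gave 359, and 336 in edgeR, 337 with TMM factors, 558 with total-read scaling, 336 for genes only and 110 after length offsets. The genes-only fits, the length offsets and the block with TMM or total-read scaling were chosen after seeing the data. Without the block the counts were 1 in edgeR, 1 with total-read scaling, 1 for genes only, 1 after length offsets, 5 with at least 10 counts in 2 libraries, 28 when all 10 libraries were fitted (20 higher, 8 lower), and 1 to 42 when a library was left out: 42 without nrpd1a-3 FTL replicate 2, and 1 without replicate 1 of either group.

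Features at an unadjusted p under 0.05 numbered 653, and with the replicate block 1368, 1977 in edgeR, 1387 with TMM factors, 1736 with total-read scaling and 1095 for genes only. Without the block they were 2161 with all 10 libraries, 429 with counts halved, 411 after length offsets, and 130 to 1341 with a library left out. DESeq2 called 0 TE families without the block (30 up and 4 down by unadjusted p), against 28 with it, 30 in edgeR with it, 28 with TMM factors, 18 with total-read scaling, and 2 with all 10 libraries. Superfamilies called were 0 without the block (4 up by unadjusted p) and 4 with the block, 3 in edgeR with it, 4 with TMM factors and 3 with total-read scaling. Why the counts differ between these settings was not tested.

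Leaving out a library without the block turned the sign of the log2 fold change of LLG2 (-2.12 to 0.29), AT1G30050 (-2.56 to 0.081), AT3G10770 (-2.11 to 0.032), CYC1BAT (-2.68 to 0.0036) and NRPD1A (-2.05 to 4.97). With the block, the split of higher and lower calls was 309 and 50, against 284 and 53 with TMM factors, 302 and 34 for genes only, 74 and 36 after length offsets and 93 and 465 with total-read scaling. With 2 libraries a group, low counts and short transcripts limit these comparisons.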

Other observations

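ILA was also read in the 6 libraries outside the sort. It had 18450 and 18676 raw reads in nrpd1a-3 FTL, 1013 and 606 in pLAT52::RTL1 pollen and 258 and 381 in pMGH3::RTL1 pollen, against 1201 and 1822 in WT FTL and 265 and 325 in WT Col-0. RTL1 is an RNase III-like protein known to suppress siRNA production. The nrpd1a-3 FTL libraries were the only ones of the 10 above 1822 raw reads.

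Other gene groups had few calls with the block in DESeq2, where 6.66% of all features tested were called higher and 1.08% lower. F-box proteins had a median log2 fold change of -0.09 over 171 genes, with 1 call in each direction of 45 tested. Pentatricopeptide repeat proteins, which act on organelle RNA, had -0.27 over 68, with 1 call in each direction of 21 tested. Histones had a median of 0.25 over 54 with 1 higher and 0 lower calls of 18 tested, cytochrome P450 genes -0.28 over 27 with 2 higher calls of 7, and arabinogalactan proteins 0.09 over 17 with 2 higher calls of 11. Polygalacturonases and pectate lyases, which loosen pectin, had a median of -0.20 over 36 with 0 calls of 22 tested (1 higher and 5 lower of the 36 by unadjusted p).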
